A study of Mus musculus with 4 samples.

Results

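The mitotic cyclins and their regulators were examined as a set of 9 genes, chosen by name: the cyclins Ccnb1, Ccnb2 and Ccna2, the kinases Cdk1, Plk1 and Aurka, the Cdk-binding protein Cks2, and the anaphase factors Cdc20 and Ube2c. All 9 were present among the 13831 gene symbols of the table, with 3367 of its 1903919 usable reads. The cells were J1 mouse embryonic stem cells grown in serum with LIF, either wild type (WT) or carrying a knockout of the RNA helicase Mov10 (KO), without further treatment, and polyadenylated RNA of each library was read strand by strand in a nanopore. Each genotype had 2 libraries, WT 1, WT 2, KO 1 and KO 2. The labels do not give the number of knockout clones or the passage, nor whether the libraries of a genotype came from separate cultures, so p-values measure only the spread between these libraries. The study asked whether poly(A) tails differ in length between the genotypes.

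Entry into mitosis is driven by Cdk1 bound to a B-type cyclin, and its end by the anaphase-promoting complex (APC/C), a ubiquitin ligase that marks the cyclins for destruction. Most of these genes are transcribed periodically, with a peak in G2 and mitosis. Their messenger RNA in an unsynchronised culture can therefore come largely from part of the cells. The poly(A) tail protects a messenger RNA from decay, and in oocytes and early embryos tail length of cyclin messages is known to control their translation. Embryonic stem cells cycle fast, with short gap phases.

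Usable reads per library numbered from 351133 to 683239. The 9 genes together accounted for 813 and 635 reads of WT 1 and WT 2, and for 1129 and 790 reads of KO 1 and KO 2. Mov10 had 26 and 14 reads in the WT libraries, 0 in KO 1 and 1 in KO 2, in keeping with the labels. Stem cell markers were abundant, with summed reads from 2990 to 5394 per library over the 7 listed genes. Of 7 fibroblast markers, which would mark feeder cells, Col1a1, Col1a2, Col3a1, Postn and Lum were not among the symbols, and the other two, Thy1 and Fbln1, summed to between 4 and 17 reads per library. Of 8 markers of early differentiation, 3 had any read, with at most 3 reads in a library.

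Promoters of this gene family typically carry CCAAT boxes, bound by the factor NF-Y, and a cell cycle homology region (CHR) that represses them outside G2 and mitosis. RefSeq promoter windows on GRCm38.p6, from 250 bases before to 50 bases after the start, were at hand for 8 of the 9 genes, Ccna2 being the exception. CCAAT, searched on both strands, occurred in 8 of the 8 windows and in 37.4% of all 32851 windows of 300 bases. A CHR, taken as TTTGAA or TTCGAA on either strand, occurred in 6 of the 8 and in 19.2% of all windows; Ccnb1 and Cks2 had none in these bases. Both motifs occurred together in those 6 windows and in 7.52% of all. The windows of the 3 genes whose read numbers did not overlap between the genotypes (below) are shown, 5′ to 3′ on the coding strand, with both motifs in capitals, as ATTGG or TTCAAA where the match is on the other strand; in Ube2c a pair of CCAAT matches on opposite strands overlap in CCAATTGG.
Ccnb2, chr9:70421505-70421804, minus strand: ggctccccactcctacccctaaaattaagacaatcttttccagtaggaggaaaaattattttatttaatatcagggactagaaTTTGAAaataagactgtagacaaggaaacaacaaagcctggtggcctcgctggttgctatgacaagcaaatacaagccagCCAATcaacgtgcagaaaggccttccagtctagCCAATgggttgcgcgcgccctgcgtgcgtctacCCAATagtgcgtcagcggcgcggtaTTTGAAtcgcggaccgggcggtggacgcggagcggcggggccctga
Cdc20, chr4:118437294-118437593, minus strand: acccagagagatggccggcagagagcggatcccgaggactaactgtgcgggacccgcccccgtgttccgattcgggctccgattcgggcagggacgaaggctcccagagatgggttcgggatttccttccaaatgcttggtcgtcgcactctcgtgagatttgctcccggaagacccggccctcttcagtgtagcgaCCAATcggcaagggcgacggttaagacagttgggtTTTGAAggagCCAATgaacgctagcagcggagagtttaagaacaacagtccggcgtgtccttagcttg
Ube2c, chr2:164769679-164769978, plus strand: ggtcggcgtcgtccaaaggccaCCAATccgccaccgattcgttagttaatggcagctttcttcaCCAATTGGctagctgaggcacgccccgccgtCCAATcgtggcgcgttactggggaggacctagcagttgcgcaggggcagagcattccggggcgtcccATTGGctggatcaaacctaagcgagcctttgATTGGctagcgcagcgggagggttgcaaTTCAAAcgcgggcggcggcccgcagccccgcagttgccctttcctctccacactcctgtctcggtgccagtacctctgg

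Tail length was summarised as the median over a gene's reads in each library. All genes but Aurka and Plk1, 7 in number, had at least 20 reads in every library and entered the test across 1935 genes. The median over these 7 was 108.9 nucleotides (nt) in WT 1, 116.9 nt in WT 2, 121.8 nt in KO 1 and 111.2 nt in KO 2, against 102.1, 109.4, 110.0 and 102.0 nt over all tested genes in the same order. Ccnb1, Ccnb2, Cdk1 and Cks2 lay above the median of all tested genes in each of the 4 libraries, as did 22.7% of all tested genes. Cdk1 reached the 93.5th and 95.1st percentile in WT 1 and WT 2. Ube2c lay lowest of the 7 in WT 2 and KO 1, at the 41.0th and 43.0th percentile, and Ccna2 ranged most widely, from the 11.8th in KO 2 to the 82.1st in WT 2.

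**Figure D1:**
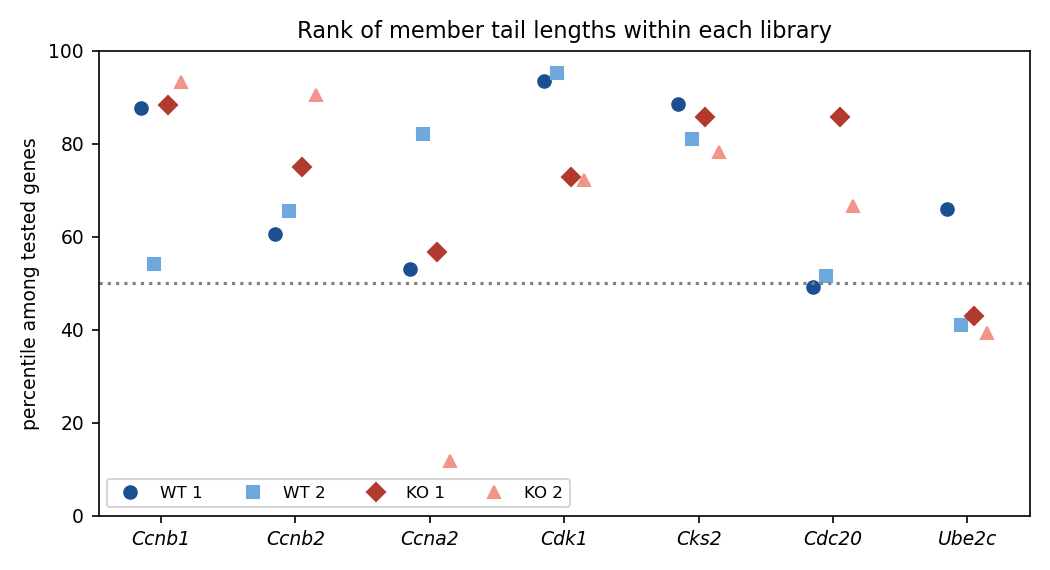
Percentile of each gene's median tail length among the 1935 tested genes, within each library (points), with the 50th percentile dotted. Ccnb1, Ccnb2, Cdk1 and Cks2 stay above the line in all 4 libraries, while Ccna2 falls to the 11.8th percentile in KO 2.

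Ordered by the mean of the 4 library medians, Cdk1 came first with 127.1 nt ± 13.9 (SD, n = 4), followed by Ccnb1 (124.0 nt), Cks2 (123.6 nt), Ccnb2 (117.2 nt), Aurka (116.6 nt), Cdc20 (112.5 nt), Ccna2 (106.7 nt), Ube2c (104.9 nt) and Plk1 with 93.6 nt ± 25.5 (SD, n = 4). No pair of neighbours in this order differed by more than the larger of their SDs. These SDs run over both genotypes, so they also hold any difference between WT and KO. The gaps ran from 0.413 nt, between Ccnb1 and Cks2, to 11.3 nt, between Ube2c and Plk1.

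None of the 7 genes differed in tail length between the genotypes by limma's test across all genes, where 0 of 1935 genes passed an adjusted p of 0.05 (0% called), and each of the 7 had an adjusted p of 0.9998. At an unadjusted p under 0.05 there were 45 genes (2.33%), and none was among the 7. Of the 7, 3 had a higher and 4 a lower value in KO, with a median log2 change of -0.05, against 0.01 over all 1935 genes. The median over the 7 was -0.13 without KO 1 and 0.05 without KO 2.

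The B-type cyclins, which activate Cdk1, both had longer median tails in the KO libraries. Ccnb1 (ENSMUSG00000041431.16) had medians of 124.5 nt in WT 1 and 111.4 nt in WT 2, against 132.1 nt in KO 1 and 128.1 nt in KO 2. The WT libraries thus lay below the KO libraries without overlap, although the 95% order-statistic intervals over reads, 98.0 to 133.3 nt in WT 2 and 120.8 to 144.1 nt in KO 1, met. The log2 change was 0.14 with a standard error (SE) of 0.15, and it ran from 0.06 without WT 2 to 0.22 without WT 1. Ccnb2 (ENSMUSG00000032218.7), the other B-type cyclin, had 106.4 and 116.9 nt in WT 1 and WT 2 and 121.8 and 123.8 nt in KO 1 and KO 2, again without overlap, with a log2 change of 0.14 (SE 0.16) that ran from 0.07 without WT 1 to 0.21 without WT 2. The intervals over reads of Ccnb2 met as well, with 93.4 to 154.3 nt in WT 2 and 110.2 to 131.5 nt in KO 1. Ccnb2 reads with tails under 30 nt were 7 of 92 and 4 of 52 in WT and 4 of 93 and 1 of 52 in KO. Of all tested genes, 14.7% had non-overlapping libraries in this direction, and 2 of the 7 genes did.

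Ccna2 (ENSMUSG00000027715.9), the A-type cyclin of S phase and G2, was the most variable cyclin. Its medians were 103.2 nt in WT 1, 125.9 nt in WT 2, 112.9 nt in KO 1 and 84.7 nt in KO 2. The genotypes overlapped, and the SDs of 16.04 nt for WT and 19.9 nt for KO (n = 2 each) exceeded the difference of 15.8 nt between the genotype means. The log2 change was -0.22 (SE 0.16), and it was -0.43 without KO 1 and -0.01 without KO 2.

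Cdk1 (ENSMUSG00000019942.13), the kinase at the centre of mitotic entry, had the largest tail difference of the 7 genes. Its medians were 134.2 nt in WT 1 and 142.3 nt in WT 2, against 120.6 nt in KO 1 and 111.2 nt in KO 2. Both KO libraries lay below both WT libraries, which in this direction held for 11.8% of all tested genes and for no other of the 7. The log2 change was -0.26 (SE 0.15), with a 95% interval from -0.55 to 0.04, and it ran from -0.31 to -0.20 with a library left out. WT averaged 138.3 nt ± 5.76 (SD, n = 2), and the KO average of 115.9 nt ± 6.63 (SD, n = 2) was lower by more than these SDs; a two-sided exact permutation test gave p = 0.333, the smallest that 2 libraries against 2 can give. Cks2 (ENSMUSG00000062248.5), a small adaptor that binds Cdk1 and its phosphorylated substrates, had 125.7 and 125.1 nt in WT and 129.6 and 114.0 nt in KO. Its WT libraries lay within the KO range, with a log2 change of -0.05 (SE 0.14).

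The other mitotic kinases had too few reads for the test. Aurka (ENSMUSG00000027496.15), which matures the spindle poles, had medians of 133.6 nt on 27 reads in WT 1, 97.7 nt on 16 reads in WT 2, 112.7 nt on 33 reads in KO 1 and 122.5 nt on 28 reads in KO 2. Plk1 (ENSMUSG00000030867.7), the polo kinase that acts from mitotic entry to cytokinesis, had 76.4 nt on 24 reads in WT 1, 121.5 nt on 15 reads in WT 2, 108.4 nt on 19 reads in KO 1 and 68.1 nt on 19 reads in KO 2. In both genes the replicates of a genotype stood as far apart as the genotypes or farther. With the minimum lowered to 10 reads their log2 changes were 0.04 (SE 0.24) for Aurka and -0.16 (SE 0.27) for Plk1, each with an adjusted p of 0.997 by limma.

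**Figure D2:**
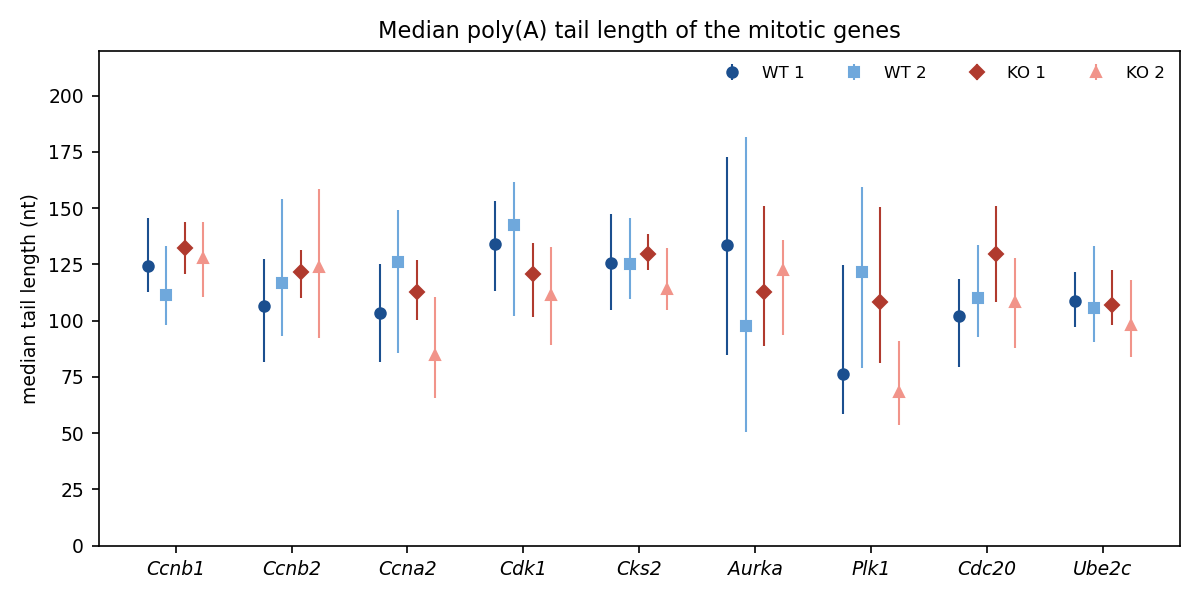
Median tail length in nt of the 9 genes in the 4 libraries (points), with 95% order-statistic intervals over reads (bars). Cdk1 is the only gene with both KO points below both WT points, Ccnb1 and Ccnb2 have both KO points above, and the widest intervals belong to Aurka in WT 2, with 16 reads, and WT 1.

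Cdc20 and Ube2c act on the APC/C at the end of mitosis, Cdc20 as the activator that brings substrates and Ube2c as the ubiquitin-conjugating enzyme that starts the chains. Cdc20 (ENSMUSG00000006398.15) had median tails of 101.9 nt in WT 1, 110.0 nt in WT 2, 129.7 nt in KO 1 and 108.3 nt in KO 2. KO 2 fell between the WT libraries, and the log2 change was 0.16 (SE 0.16), with 0.03 without KO 1 and 0.29 without KO 2. Ube2c (ENSMUSG00000001403.13) had 108.9 and 105.8 nt in WT and 107.0 and 98.0 nt in KO, the narrowest spread of the 9 genes, with an SD of 4.78 nt over the 4 libraries and a log2 change of -0.07 (SE 0.14), which was -0.13 without KO 1 and -0.0044 without KO 2.

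Long tails, of 150 nt or more, separated Cdc20 more than its median did. In WT 1, 11 of 59 reads had such a tail (18.6%, with a 95% Wilson interval of 10.7 to 30.4%), and in WT 2 it was 9 of 49 (18.4%, 9.98 to 31.4%). In KO 1 it was 49 of 118 reads (41.5%, 33.0 to 50.5%), and in KO 2 it was 26 of 85 (30.6%, 21.8 to 41.0%). The KO libraries were thus above both WT libraries, the WT mean being 18.5% ± 0.196 (SD, n = 2) and the KO mean 36.1% ± 7.73 (SD, n = 2), with p = 0.333 by a two-sided exact permutation test. The upper quartile of its tails stood at 136.9 and 144.7 nt for WT and at 175.3 and 157.5 nt for KO. The interval of KO 2 overlapped those of both WT libraries; all such intervals cover the counting error of reads only.

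In Cdk1 the long share ran the other way, from 40.0 and 42.6% in WT to 33.3 and 31.3% in KO. Cks2 had 38.4 and 40.1% in WT and 37.8 and 33.1% in KO, and Ube2c 30.05 and 31.6% against 23.5 and 28.6%. Ccnb1 had 34.0 and 34.4% in WT and 39.6 and 37.6% in KO. Among the 7 tested genes the libraries did not overlap in 2 with more long tails in KO, Ccnb1 and Cdc20, and in 3 with fewer, Cdk1, Cks2 and Ube2c. Over all tested genes these shares were 14.3% and 13.2%. Over the pooled reads of the 9 genes, long tails were 31.4% and 35.3% for WT 1 and WT 2 and 32.9% and 30.8% for KO 1 and KO 2, so the genotypes overlapped; over all reads of a library they were between 18.8% and 24.0%. Short tails, under 30 nt, were 3.44% and 4.88% of the pooled reads in WT and 2.13% and 3.42% in KO, so that WT 1 and KO 2 were nearly equal, against 2.35% and 3.02% in WT and 1.55% and 2.75% in KO over all reads. The difference of -1.39 points between the genotype means ran from -2.11 without WT 1 to -0.67 without WT 2. Cdc20 in KO 1 had 0 of 118 short tails, which allows a share of up to 2.54% when 3 reads are taken as the limit of a count of 0, and up to 3.15% by the 95% Wilson interval.

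**Figure D3:**
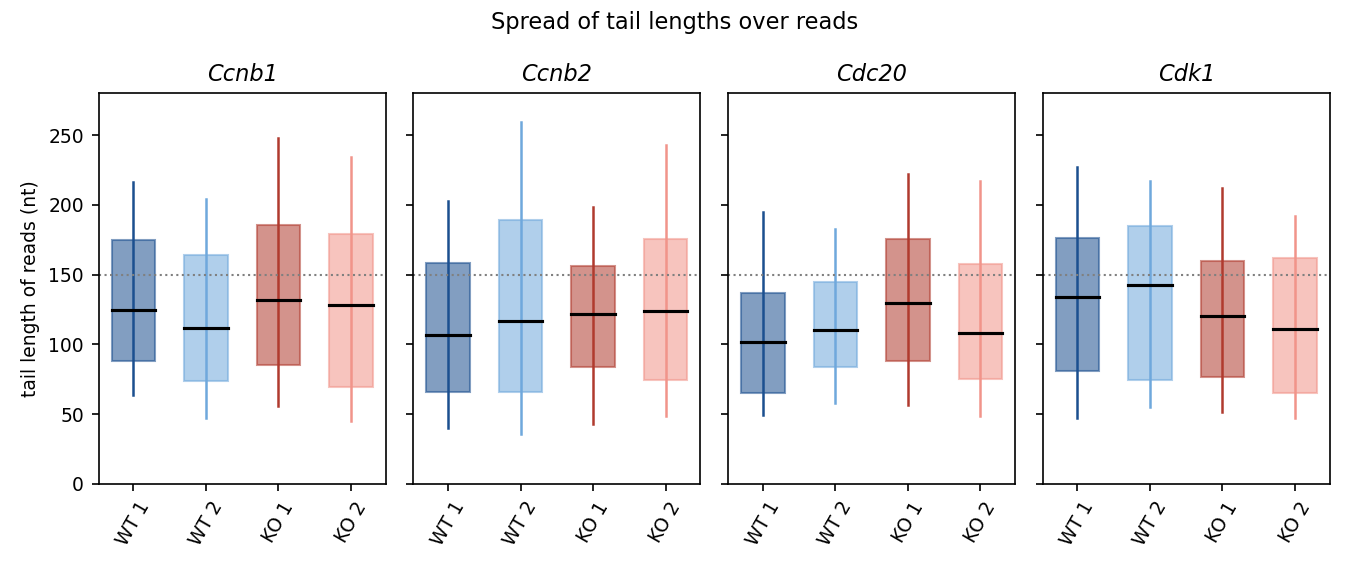
Tail lengths of single reads in nt for 4 genes in each library: median (black line), quartiles (box) and 10th to 90th percentile (line), with 150 nt dotted. The boxes of Cdc20 reach past 150 nt in both KO libraries but not in WT, where the upper quartiles were 136.9 and 144.7 nt, and the upper edges of the Cdk1 boxes are lower in KO.

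Reads came assigned to single transcripts, and these assignments were compared. How well reads told overlapping transcripts apart was not tested, and broken molecules were not accounted for. Ccnb2, Cdc20, Plk1, Cks2 and Ube2c each had all reads on 1 transcript. Ccnb1 reads fell mainly on ENSMUST00000072119.14 and ENSMUST00000091295.13. The latter took 16 of 100 reads of WT 1 (16%, Wilson interval 10.1 to 24.4%), 31 of 90 of WT 2 (34.4%, 25.4 to 44.7%), 54 of 149 of KO 1 (36.2%, 29.0 to 44.2%) and 37 of 117 of KO 2 (31.6%, 23.9 to 40.5%). WT 1 had the lowest share, and its interval met that of KO 2 but not those of WT 2 and KO 1. On the leading transcript alone the Ccnb1 medians were 121.3 and 111.3 nt in WT and 125.8 and 124.9 nt in KO, again without overlap.

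For Ccna2, reads off the leading transcript ENSMUST00000029270.9 numbered 4 of 72 for WT 1 (5.56%, Wilson interval 2.18 to 13.4%) and 7 of 75 for WT 2 (9.33%, 4.59 to 18.03%). They numbered 32 of 131 for KO 1 (24.4%, 17.9 to 32.4%) and 9 of 68 for KO 2 (13.2%, 7.12 to 23.3%). The KO shares were higher without overlap. Of 1499 tested genes with more than 1 transcript, 23.8% had non-overlapping shares in this direction and 8.07% in the other. On the leading transcript the Ccna2 medians were 104.5 and 121.6 nt in WT and 115.6 and 92.2 nt in KO. Cdk1 had 1 read off its leading transcript in each KO library and 0 in WT. Aurka was split over 3 transcripts, none with more than 14 reads in a library.

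The number of reads per gene served as the measure of RNA abundance; a direct RNA read is a single molecule, so read numbers were not divided by length, and they are compared only within a gene. In bulk RNA, fewer cells in G2 and mitosis and less of a message per cell cannot be told apart. Values are reads per 1000000 reads (RPM) after scaling of the libraries by median of ratios. None of the 9 genes passed limma's voom test, in which 0 of 4815 genes did (0% called). An unadjusted p under 0.05 was found for 498 genes (10.3%), none of them among the 9. Mov10 itself, with a log2 change of -5.09, had an adjusted p of 0.0553 in limma's voom test. A lack of calls therefore does not show that read numbers were unchanged. The log2 change was above 0 in 2 of the 9 genes and below 0 in 7, with a median of -0.11, against -0.01 over all genes tested. When libraries were scaled by total reads instead, the median over all genes was 0.11, and Ccnb1, Cks2 and Aurka, with 0.0034, 0.0265 and 0.0294, were above 0 but below that median.

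Ccnb2 had 231.9 RPM in WT 1, 144.5 RPM in WT 2, 132.7 RPM in KO 1 and 114.7 RPM in KO 2. Both KO libraries were lower than both WT libraries, WT 2 only narrowly higher than KO 1, and the log2 change was -0.57 (SE 0.30, 95% interval -1.20 to 0.07; limma adjusted p = 0.539). Without WT 2 it was -0.90, with an adjusted p of 0.0353, and without WT 1 it was -0.23 (0.890). Ube2c had 511.8 RPM in WT 1 and 369.6 RPM in WT 2, against 309.6 RPM in KO 1 and 324.3 RPM in KO 2. The KO libraries again lay below both WT libraries, with a log2 change of -0.46 (SE 0.26; limma adjusted p = 0.560), which was -0.69 without WT 2 and -0.23 without WT 1. Cdc20 was the exception, with 148.7 RPM in WT 1, 136.2 RPM in WT 2, 168.4 RPM in KO 1 and 187.5 RPM in KO 2. Its KO libraries were higher without overlap, with a log2 change of 0.31 (SE 0.28; limma adjusted p = 0.742). Over all tested genes, 20% had non-overlapping read numbers with more in KO and 20.5% with fewer, against 1 and 2 of the 9 genes.

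The other 6 genes overlapped between the genotypes. Cdk1 had 226.9 and 189.0 RPM in WT and 205.5 and 211.8 RPM in KO, with a log2 change of 0.00 (SE 0.27). Ccnb1 had 252.1 and 250.1 RPM in WT and 212.6 and 258.1 RPM in KO, and Cks2 368.1 and 380.7 RPM against 321.1 and 392.7 RPM, with log2 changes of -0.11 and -0.08. Ccna2 had 181.5 and 208.4 RPM in WT and 186.9 and 150.03 RPM in KO, a log2 change of -0.20. Plk1, with 60.5 and 41.7 RPM in WT and 27.1 and 41.9 RPM in KO, had the lowest log2 change of the 9 genes, -0.62 (SE 0.41), on 15 to 24 reads a library, and it ran from -0.90 to -0.25 with a library left out. Aurka had 68.1 and 44.5 RPM in WT and 47.1 and 61.8 RPM in KO, a log2 change of -0.07 (SE 0.37). Summed over the 9 genes, the level was 2050 RPM in WT 1, 1765 RPM in WT 2, 1611 RPM in KO 1 and 1743 RPM in KO 2. Of the 7 stem cell markers, 0 passed the test for read number; their log2 changes had a median of -0.47, and their summed levels were 9988 and 9020 RPM in WT and 7697 and 6597 RPM in KO; their part in the read numbers of the mitotic genes was not tested.

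**Figure D4:**
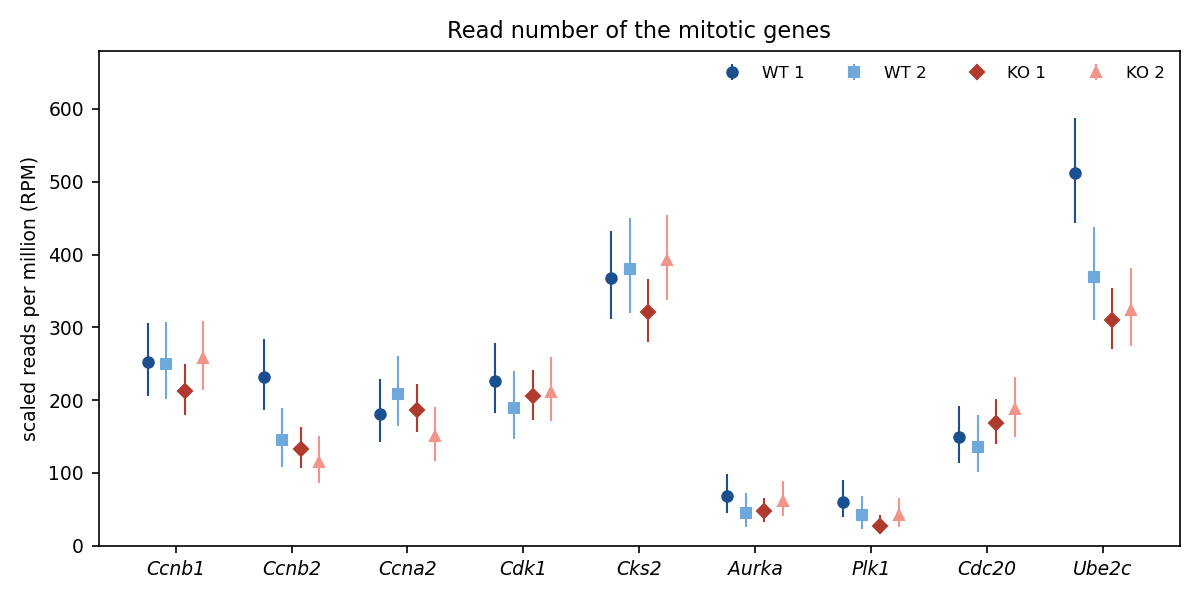
Scaled RPM of the 9 genes in the 4 libraries (points), with exact 95% binomial intervals for counting error (bars). Ccnb2 and Ube2c have both KO points below both WT points, and Cdc20 has both above.

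Tail length and read number were set side by side for the 7 genes tested for both. Ccnb2 had a log2 change of 0.14 in tail length and -0.57 in read number, so its values lay on opposite sides of 0. Cdc20 was above 0 in both, with 0.16 and 0.31, and Cdk1 had -0.26 in tail length and 0.00 in read number. None of these values passed its test. In the authors' deposited classes, Ccnb1 and Cdc20 were listed as non-targets of Mov10, Ccna2, Aurka, Cks2 and Plk1 as targets without m6A, and Ccnb2, Cdk1 and Ube2c were in no class; none was listed as a target with m6A, a methylated adenosine. The 2 non-targets had tail changes of 0.14 and 0.16, and the 2 targets tested, Ccna2 and Cks2, -0.22 and -0.05. Ccnb2, Cdk1 and Ube2c, in no class, covered the same range, with 0.14, -0.26 and -0.07. Each of these changes had an SE from 0.14 to 0.16, and a difference between the classes was not tested.

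**Figure D5:**
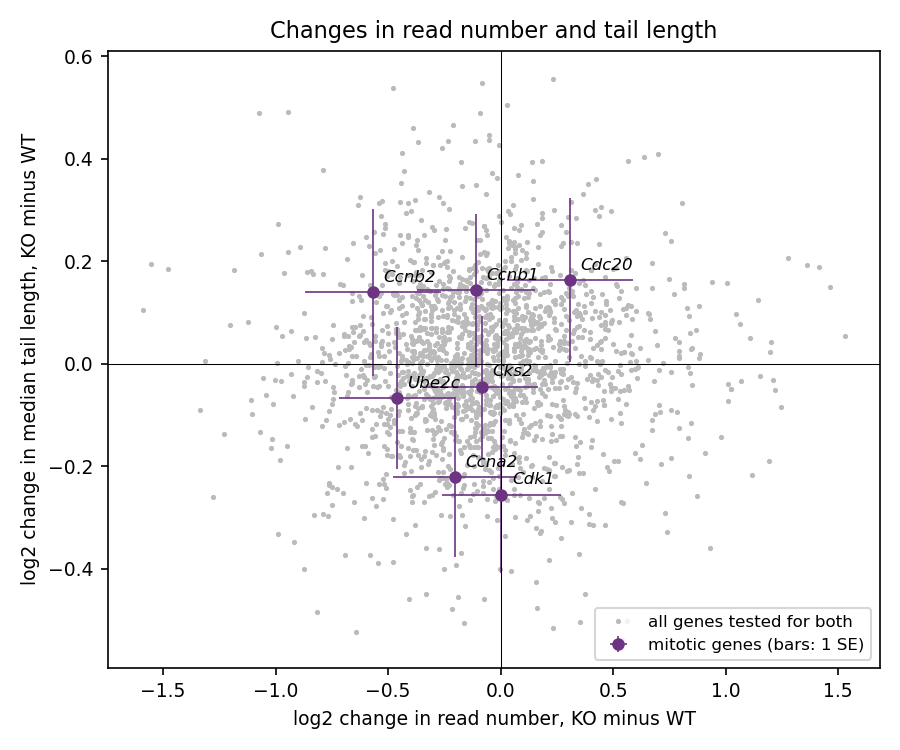
Log2 change in read number (horizontal) and in median tail length (vertical), KO minus WT, for all 1935 genes tested for both (grey) and the 7 mitotic genes (purple, bars 1 SE). The 7 genes lie within the cloud of all genes, Cdk1 lowest and Cdc20 highest of them in tail length.

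Other cell cycle genes, 92 in 7 lists, were examined for the setting of these values; 91 were among the symbols. None passed either test: 0 of 34 for tail length, with a median log2 change of -0.03 and 16 above 0, and 0 of 78 for read number, with a median of -0.13 and 31 above 0. At an unadjusted p under 0.05 there were 2 of 34 for tail length, against 2.33% of all genes, and 7 of 78 for read number, against 10.3% of all genes. In each of the 7 lists taken alone, 0 genes were called in either direction by either test.

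In the list of APC/C subunits and regulators, 19 genes were tested for read number and 6 for tail length. Ube2s, which extends the ubiquitin chains that Ube2c begins, had 1127 and 917.0 RPM in WT and 742.0 and 937.7 RPM in KO, a log2 change in read number of -0.30. Its median tails were 95.5 and 94.9 nt in WT and 91.9 and 79.3 nt in KO. Anapc11, the RING subunit of the APC/C, had 229.4 and 211.2 RPM in WT and 393.8 and 401.5 RPM in KO, a log2 change of 0.85 (SE 0.25; limma adjusted p = 0.205, 0.0495 without WT 2 and 0.0726 without WT 1). In the spindle checkpoint list, which restrains Cdc20, 7 genes were tested for read number, with a median log2 change of 0.12 and 4 of 7 above 0, whereas the 2 with the most reads, Zwint and Bub3, had -0.30 and -0.26.

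Among 9 tested genes of mitotic entry control, Cks1b, the paralog of Cks2, had 221.8 and 230.6 RPM in WT and 284.0 and 289.0 RPM in KO, a log2 change of 0.34 where Cks2 had -0.08. Mybl2, a transcription factor for this gene family, had 451.3 and 264.0 RPM in WT and 184.1 and 244.9 RPM in KO, a log2 change of -0.72 (limma adjusted p = 0.414). It was -1.10 without WT 2 (adjusted p = 0.00111) and -0.34 without WT 1 (adjusted p = 0.749), so its size rested on the high WT 1 library. Of 13 chromosomal passenger and centromere genes, Birc5 (survivin) had 292.4 and 269.5 RPM in WT and 465.2 and 514.1 RPM in KO, a log2 change of 0.79 (SE 0.25; limma adjusted p = 0.241). Spc24, a kinetochore subunit, had -0.60 (limma adjusted p = 0.521), with 274.8 RPM in WT 1 and 155.6 RPM in WT 2. It was -0.99 without WT 2 (adjusted p = 0.0123) and -0.19 without WT 1 (adjusted p = 0.920). Of 15 spindle and cytokinesis genes, Ect2 and Tpx2 had 0.04 and -0.22. Of 8 condensin and chromosome structure genes, Top2a and Ncaph2 had -0.08 and -0.35, and of 7 cyclins and kinases of G1 and S phase, Cdk4 and Ccnd3 had -0.14 and 0.06.

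Ube2c had the most reads of the 9 genes, 700 in all, and the tested genes with tail lengths most like it over the 4 libraries were Cdc37, Cul3, Sub1, Rpf2 and Ftl1-ps1. Their Euclidean distances on the log2 scale were from 0.0487 to 0.0569, against a median of 0.395 over 1928 genes. Cdc37 had medians of 107.5, 108.2, 107.1 and 100.2 nt in WT 1, WT 2, KO 1 and KO 2. Reads of Ftl1-ps1, a pseudogene of the ferritin light chain, may be shared with its parent gene. The nearest of the mitotic genes to Ube2c was Cdc20, at 0.332, and the farthest of those tested was Cdk1, at 0.581.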

How the data were processed

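The authors enriched polyadenylated RNA on oligo(dT) beads, made direct RNA libraries (SQK-RNA002) with DeePlexiCon barcodes and ran them on MinION R9 flow cells, per the labels' protocols; minimap2 2.20 is named in the submitters' processing notes. The basecaller, the tail length tool, the build, the annotation and read filters are not given in the sources used here. The deposited table holds 1 estimated tail length in nt per read, with transcript, symbol and library, and no normalization is recorded; 3 reads of length 0 were left out. Reads were counted here. Oligo(dT) selection can under-sample very short tails, and broken molecules were not accounted for.

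Log2 median tail length per gene and library (at least 20 reads in each) was tested with limma 3.58.1 (R 4.3.3), with log2 mean reads as the trend covariate. Read number was tested with limma's voom (0.5 reads added, median-of-ratios scaling, mean of at least 10 reads). P-values were adjusted by Benjamini-Hochberg over all genes, at a threshold of 0.05. Both fits were run on simulated data with independent noise per gene and library, and were required to return the sign of known changes. This does not measure their power in these libraries. Genes outside the set were named by a rule: Mov10, the 2 with the most reads in each cell cycle list, and the 5 nearest to the member with the most reads. The members and lists were chosen with earlier results of these data known. Tables were handled with Python 3.11.15, pandas 2.3.3 and scipy 1.17.1. Alternatives changed the read minimum, the summary of tails, the weights, the centring, the scaling, the test, the symbols used and the cuts for long and short tails, added the replicate number as a block, or left out a library.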

Additional observations from a re-analysis of the deposited data

How the results depend on the processing

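Tail length calls over all genes numbered 0 with all libraries and from 0 to 2 with a library left out, and 1 when genes needed 10 reads per library. Read number calls numbered 0, and from 0 to 451 with a library left out (93 without WT 1, 451 without WT 2), 66 with the replicate block, 96 without a filter on low read numbers, 7 with scaling by total reads and 1 with tails of at least 10 nt; the cause was not tested. The replicate block gave 0 calls for tail length and called none of the 9 genes. Across genes, the deviations of WT 1 and KO 1 from their genotype means correlated at 0.0135 for tail length and 0.0161 for read number. This cannot decide whether the replicate numbers pair the libraries, since it leaves out any shift that all genes of a library share.

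With a library left out, the median over members ranged from -0.13 to 0.0474 for tail length and from -0.24 to 0.0481 for read number. The sign turned for Cks2 tail length (-0.14 to 0.0474), and for read number of Ccnb1 (-0.24 to 0.0575), Cdk1 (-0.12 to 0.13), Aurka (-0.36 to 0.22), Cks2 (-0.22 to 0.0873), Ect2 (-0.16 to 0.22), Top2a (-0.48 to 0.31), Cdk4 (-0.57 to 0.29) and Ccnd3 (-0.33 to 0.52). Scaling by total reads gave 0.0034 for Ccnb1, 0.0294 for Aurka, 0.0265 for Cks2 and 0.0439 for Top2a. Transcripts with a single symbol gave -0.0136 for Cdk1 and 0.495 for Cdk4. For the members, 89 of the alternative tail values and 86 of the read number values kept sign and call, 1 and 10 changed sign, and 1, Ccnb2 without WT 2, became a call. Between 15 and 225 reads per gene and library limit the precision. The SE of a log2 change in tail length was 0.14 to 0.16 for the 7 tested genes. With the minimum lowered to 10 reads it was 0.24 for Aurka and 0.27 for Plk1. For read number the SE was 0.25 to 0.41 over the 9 genes.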

Other observations

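The largest read number changes among the cell cycle genes named by number of reads were those of Anapc11 and Birc5, which both lie on chromosome 11 in the RefSeq annotation. In its gene order, 18 genes tested for read number run from Birc5 to Anapc11, and 18 of 18 had a log2 change above 0, with a median of 0.88, whereas 251 of the other 441 tested genes on the chromosome did, with a median of 0.11. None of the 9 mitotic genes lies on this chromosome. This stretch was singled out after its values were seen, and its ends, Birc5 and Anapc11, are counted among the 18. The contrast with the rest of the chromosome was thus partly fixed by that choice.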
